A study of Mus musculus with 24 samples.

Results

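Integrins, laminins and nidogens were measured as a family of 40 genes among the 56748 genes of a bulk RNA-seq count table from mouse molar tooth germs. Members were taken by symbol alone: 18 integrin alpha subunits, 9 integrin beta subunits, 11 laminin chains and the 2 nidogens. The study used ICR mice, and asked how the lingual (tongue-side) and buccal (cheek-side) parts of the dental mesenchyme differ while the mandibular first molar forms. Tissue came from the cap stage (embryonic day 13) and the bell stage (embryonic day 15), epithelium was detached with Dispase II, and lingual and buccal parts were divided with a fine needle. There were 8 groups of 3 libraries: the undivided mesenchyme (Cap_W, Bell_W), the lingual parts (Cap_L, Bell_L), the buccal parts (Cap_B, Bell_B), and cap-stage lingual or buccal parts kept for 2 days in vitro (Cap_L_2D, Cap_B_2D). No genetic change is named for any group. The sources describe the replicates both as triplicates and as pairs, so p-values measure the spread between these libraries, which may be technical. The design text names the undivided samples as whole tooth germs, while the protocol and the paper name them as mesenchyme.

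Laminins are cross-shaped trimers of 1 alpha, 1 beta and 1 gamma chain that polymerise into the sheet on which epithelial, endothelial, muscle and nerve cells rest, and nidogens link that sheet to the collagen IV network. Integrins are alpha-beta pairs in the cell membrane that bind laminin, collagen, fibronectin or cell-surface ligands outside the cell and the actin or keratin skeleton inside it. In the developing tooth the basement membrane lies between the enamel epithelium and the dental mesenchyme, and signals between these layers pass across it.

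The members that differed most between the lingual and buccal parts at the cap stage were Lama1 and Itga11, higher on the lingual side, and Itga4 and Itga7, higher on the buccal side. Itgb4, the epithelial partner of Itga6 in hemidesmosomes, fell most after culture of the buccal part. Their upstream sequences are shown because these 5 genes carry the comparisons that follow. Each is the 250 bases before the first base of the gene's canonical GENCODE M39 transcript in GRCm39, 5′ to 3′ on the gene's own strand, and none of the 5 windows meets an annotated exon. Capitals mark matches, on either strand, to TGANTCA (the AP-1 motif), CAGCTG (an E-box) and GGGCGG (the GC box, CCGCCC on the other strand). The windows are chr17:68003973-68004222, plus strand for Lama1, chr9:62584858-62585107, plus strand for Itga11, chr2:79085410-79085659, plus strand for Itga4, chr10:128769371-128769620, plus strand for Itga7 and chr11:115865083-115865332, plus strand for Itgb4.
Lama1: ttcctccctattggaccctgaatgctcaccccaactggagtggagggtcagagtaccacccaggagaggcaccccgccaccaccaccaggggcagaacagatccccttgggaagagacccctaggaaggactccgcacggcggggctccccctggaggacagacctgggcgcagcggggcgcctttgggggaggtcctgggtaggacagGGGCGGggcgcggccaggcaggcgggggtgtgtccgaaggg
Itga11: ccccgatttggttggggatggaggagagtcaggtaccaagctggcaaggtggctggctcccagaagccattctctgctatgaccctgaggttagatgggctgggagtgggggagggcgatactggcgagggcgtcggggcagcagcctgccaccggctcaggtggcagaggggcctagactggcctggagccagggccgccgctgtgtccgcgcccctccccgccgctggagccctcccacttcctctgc
Itga4: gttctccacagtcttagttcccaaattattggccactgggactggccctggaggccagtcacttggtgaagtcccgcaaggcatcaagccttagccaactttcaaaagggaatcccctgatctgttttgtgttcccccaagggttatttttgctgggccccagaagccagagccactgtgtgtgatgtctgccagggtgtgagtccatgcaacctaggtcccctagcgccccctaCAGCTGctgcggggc
Itga7: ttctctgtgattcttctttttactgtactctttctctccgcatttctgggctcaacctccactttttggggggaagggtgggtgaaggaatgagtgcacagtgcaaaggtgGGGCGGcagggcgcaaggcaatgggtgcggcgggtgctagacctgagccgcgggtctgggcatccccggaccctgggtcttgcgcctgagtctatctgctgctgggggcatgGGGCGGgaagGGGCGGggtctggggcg
Itgb4: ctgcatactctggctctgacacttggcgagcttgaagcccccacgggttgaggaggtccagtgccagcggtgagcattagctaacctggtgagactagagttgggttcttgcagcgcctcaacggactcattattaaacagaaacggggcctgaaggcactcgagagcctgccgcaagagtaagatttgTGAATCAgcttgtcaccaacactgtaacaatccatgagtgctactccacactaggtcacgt

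Among the 5 windows Itgb4 held the AP-1 letters 1 time, Itga4 the E-box letters 1 time, Itga7 the GC box 3 times and Lama1 1 time, and Itga11 held none of the 3. Over the windows of 21751 protein-coding genes, 6.17% held TGANTCA, 11.9% CAGCTG and 36.3% GGGCGG. Among the 40 members these were 3, 5 and 17 windows, or 7.50%, 12.5% and 42.5%.

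Libraries held between 20581720 and 39266497 counted read pairs, and 3 counts, taken as the floor of detection, came to 0.0764 to 0.146 CPM (counts scaled to library size, the unit of all levels here). Markers of other cell types differed between the groups. The sum of 12 epithelial markers ran from 99.98 to 100.3 CPM in Cap_B_2D to 1033 to 1083 CPM in Bell_L, and 1 Bell_W library stood at 2657 CPM against 659 and 731 CPM in the other two. The sum of 11 skeletal muscle markers was 17.2 to 18.1 CPM in Cap_L, 215 to 237 CPM in Cap_B and 4007 to 4249 CPM in Cap_B_2D. Dental mesenchyme markers (Msx1, Pax9 and 7 others) were all above the floor, at sums of 2077 to 4028 CPM. In bulk tissue, fewer cells of a type and less RNA per cell cannot be told apart. Library 1 of Cap_W carried 5.39% of its counts in the ribosomal RNA gene Rn18s-rs5.

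Compared per kilobase of exon, the family was led by its widely expressed members. Itgb1, the common beta subunit of collagen, laminin and fibronectin receptors, averaged 138 CPM per kb over the 24 libraries. Itgb5, which pairs with Itgav in a vitronectin receptor, followed at 95.9 CPM per kb. Nid1 (57.7), Lamb1 (49.1), Lamc1 (46.5), Nid2 (38.0), Lamb2 (37.7) and Itga5, the fibronectin receptor subunit (35.6), came next on the same scale. Itgb1 was highest in Cap_L_2D and lowest in Cap_B, 1.68-fold apart in group means, whereas the group means of Lamb3 spanned 19.7-fold and those of Itga7 33.1-fold. The lowest means of Itga7 lay in Cap_W, where 1 library was at the floor.

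**Figure D1:**
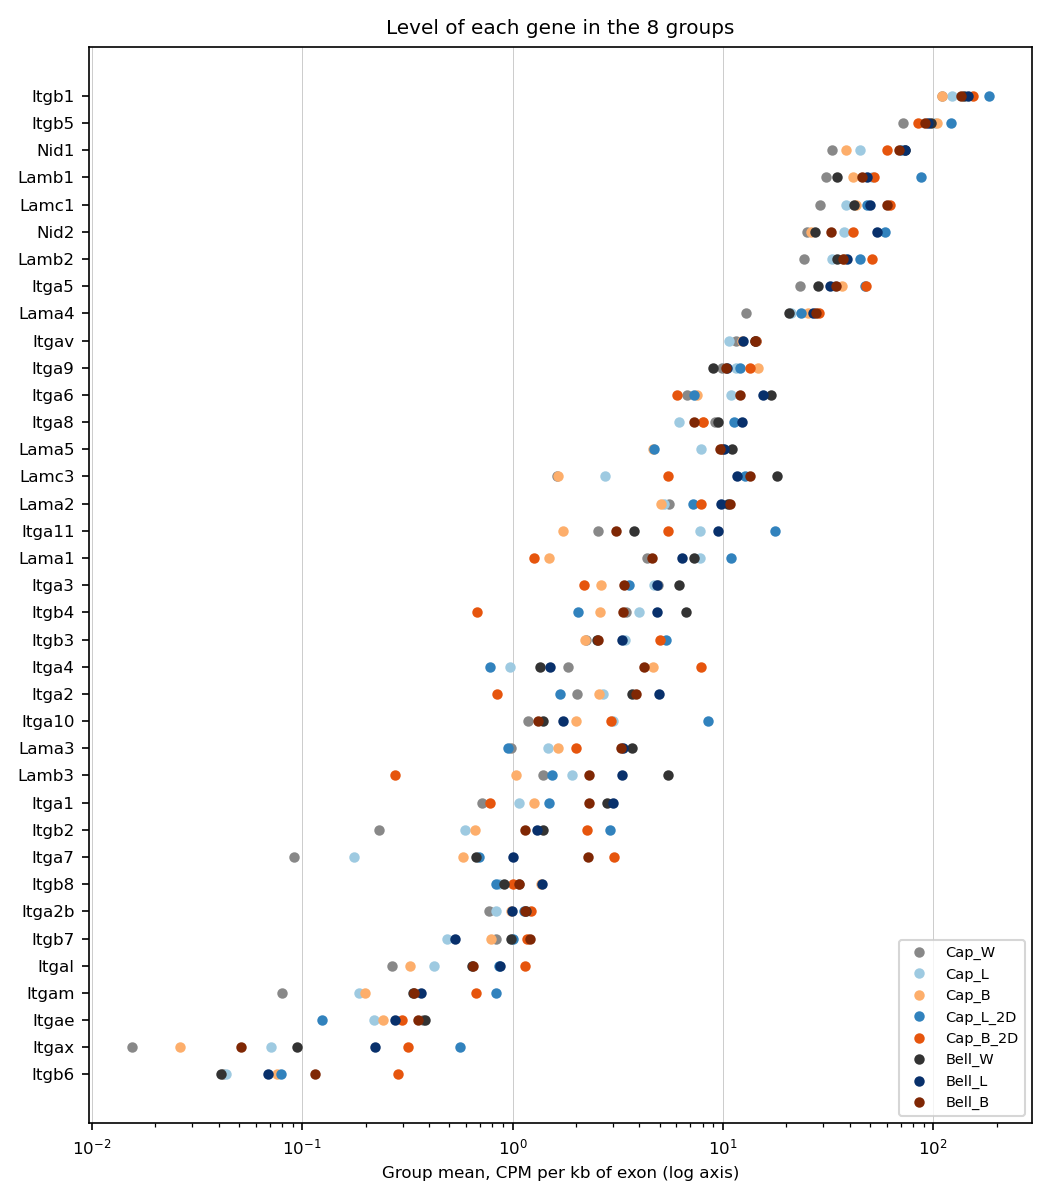
Group mean of 37 members in CPM per kb of exon on a log axis, 1 dot for each of the 8 groups (mean of 3 libraries), ordered by the mean over all 24 libraries. Itgb1 and Itgb5 stand highest with dots close together, and Lamb3, Itga7 and Itgax spread widely (Itgad and Itgb2l, mostly at the floor, are among those left out).

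Lama4, the alpha chain of endothelial and mesenchymal laminins, was the largest share of the 5 alpha chains in every group. On the per-kb scale it made up 48.6% ± 1.21 (SD, n = 3) of the alpha-chain total in Cap_L and 66.5% ± 0.396 in Cap_B. Lama1, the alpha chain of early embryonic laminin, made up 17.9% ± 0.656 in Cap_L, 3.91% ± 0.118 in Cap_B, 23.0% ± 0.588 in Cap_L_2D and 2.56% ± 0.232 in Cap_B_2D. The lingual and buccal shares of Lama1 therefore lay far apart at the cap stage and after culture, and nearer at the bell stage (11.4% ± 0.0773 and 8.21% ± 0.420). Lamc1 was the main gamma chain throughout, and the share of Lamc3 went from 6.26% ± 0.395 in Cap_L to 18.1% ± 0.542 in Bell_L and 20.3% ± 0.980 in Cap_L_2D. Lamb1 and Lamb2 together formed nearly all of the beta-chain level.

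Several of the lowest members are leukocyte subunits. Itgad was at or under the floor in 19 of 24 libraries and Itgb2l in 21, and neither entered any test. Itgax was at or under it in 5 libraries, Itgb6 in 2 and Itga7 in 1, and Itgax and Itgb6 were too low to be tested in the cap-stage side comparison and in the undivided mesenchyme. Read pairs that met the exons of more than 1 gene were not counted, which touches 68.7% of the exon bases of Itgam and 33.5% of those of Itga10, so the levels of both are uncertain.

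The first question was whether the buccal and lingual parts of the cap-stage mesenchyme differed in these genes. Of 36 members tested, 4 were higher and 11 lower in Cap_B than in Cap_L, against 10.4% and 7.10% of all genes tested called in each direction. A call needed a log2 fold change beyond 0.5 in either direction and an adjusted p below 0.05 in the quasi-likelihood test of edgeR, with Benjamini-Hochberg adjustment over all genes. The median log2 fold change of the members was 0.02 and that of all genes -0.01. Among laminin chains 5 of 11 were lower in the buccal part and 0 higher, neither nidogen was called, and integrins were called in both directions.

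Lama1 stood at 72.4, 73.1 and 81.3 CPM in the Cap_L libraries and at 14.5, 13.8 and 15.1 CPM in Cap_B. The 2 groups did not overlap, and the log2 fold change of buccal over lingual was -2.36 ± 0.06, adjusted p = 1.31e-15, with the error as a standard error here and throughout. Itga11, a collagen receptor subunit of mesenchymal cells and fibroblasts, was 38.9, 39.4 and 40.8 CPM in Cap_L and 7.99, 9.92 and 8.95 CPM in Cap_B (-2.12 ± 0.07, adjusted p = 3.71e-14). Lama1 was thus 5.12-fold and Itga11 4.35-fold higher on the lingual side. Lamb3, a chain of the epithelial laminin of hemidesmosomes, was 12.7, 12.7 and 12.4 CPM in Cap_L and 6.45, 7.24 and 6.85 CPM in Cap_B (-0.85 ± 0.08, adjusted p = 1.13e-07).

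Itga4, which binds fibronectin and Vcam1, showed the opposite side. It was 64.9, 66.9 and 64.1 CPM in Cap_B and 14.5, 11.7 and 14.5 CPM in Cap_L (2.30 ± 0.07, adjusted p = 8.37e-15). Itga7, the laminin receptor subunit of muscle, was 4.87, 5.06 and 4.32 CPM in Cap_B and 1.18, 1.47 and 1.66 CPM in Cap_L (1.74 ± 0.15, adjusted p = 2.59e-08). Itgb8, which pairs with Itgav to bind latent TGF-beta, was 15.9, 14.5 and 14.7 CPM in Cap_B and 9.16, 8.63 and 10.8 CPM in Cap_L (0.69 ± 0.09, adjusted p = 3.90e-06). Buccal libraries were above lingual ones for these 3 genes, and in all 31 of the 36 members had no overlap between the sides in either direction, against 52.4% of all genes tested.

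Among the other members called at the cap stage, Itga3, Lama5, Lamc3, Itgb3, Itgb4, Itga10 and Itga6 were lower in the buccal part by log2 fold changes from -0.81 to -0.51, and Itgb7, a leukocyte subunit, was higher (0.70 ± 0.19). Nid2 passed the adjusted p but missed the fold limit (-0.49 ± 0.05, adjusted p = 7.75e-08). The partner subunits Itgb1 (-0.15 ± 0.04) and Itgb5 (0.06 ± 0.05) did not reach the fold limit. When all 24 libraries shared 1 edgeR fit, the cap-stage calls of Lamb3 (adjusted p = 0.0841), Lamc3 (0.221) and Itgb4 (0.239) were lost.

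**Figure D2:**
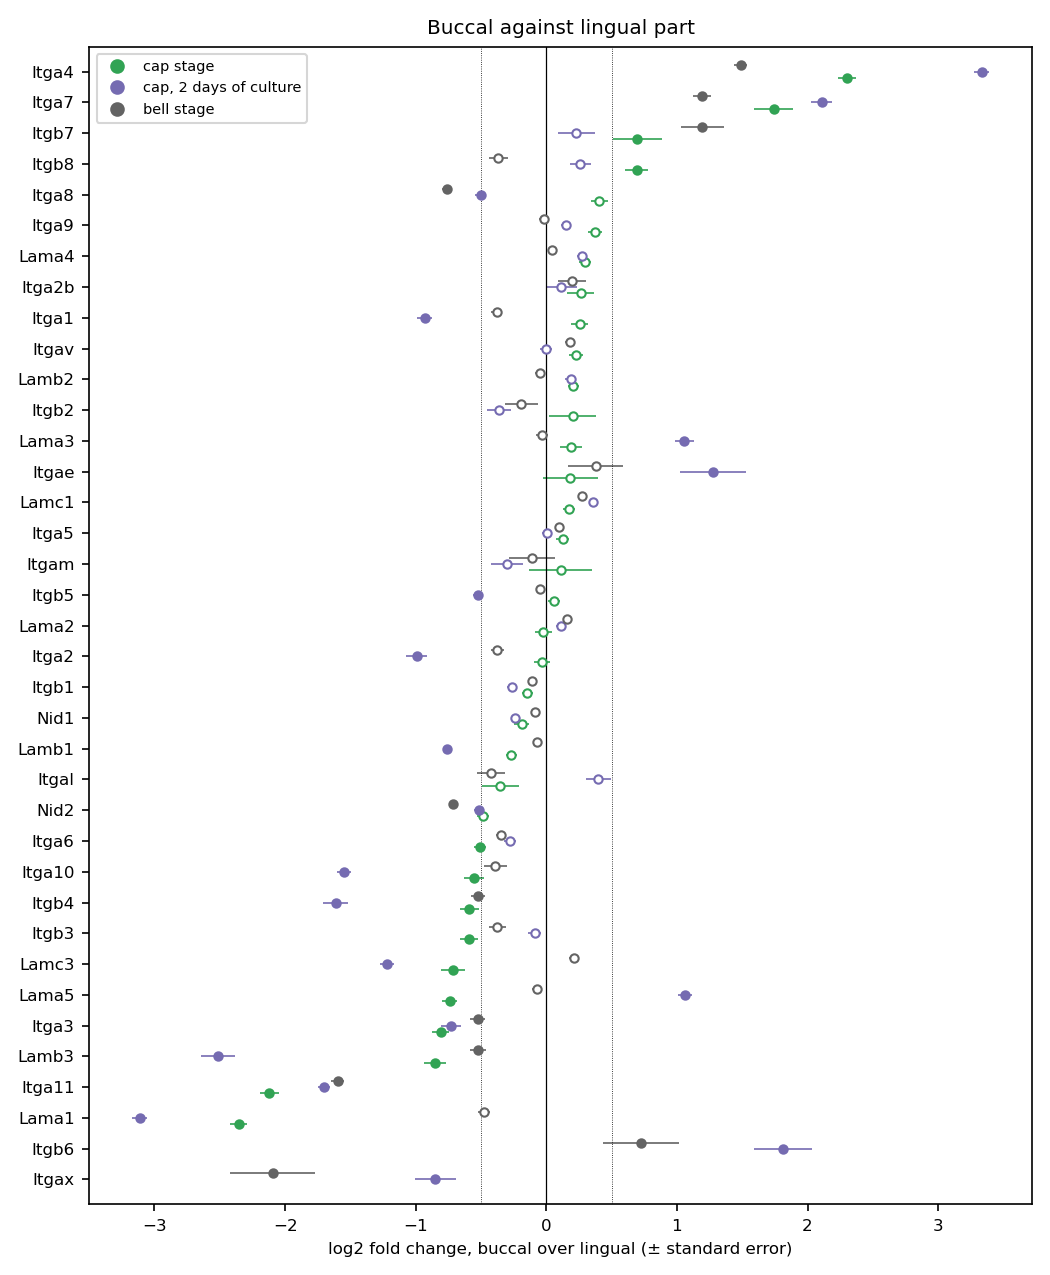
log2 fold change of buccal over lingual for the tested members at the cap stage, after 2 days of culture and at the bell stage (3 against 3 libraries each), with standard errors, filled points for those past both limits, open points for the others and dotted lines at 0.5 in either direction. Itga4 and Itga7 lie to the right in all 3 comparisons and Itga11 to the left, while Lama1 is far left at the cap stage and after culture and not called at the bell stage.

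At the bell stage fewer members were called than at the cap stage, and a smaller share of all genes. Of 38 members tested, 4 were higher and 7 lower in Bell_B than in Bell_L, against 6.00% and 6.88% of all genes tested. The median log2 fold change was -0.10 over the members and 0.00 over all genes. Itga4 was again higher in the buccal part, at 57.8, 62.4 and 56.7 CPM in Bell_B against 20.0, 22.3 and 20.8 CPM in Bell_L (1.49 ± 0.05, adjusted p = 2.97e-26). Itga7 was 19.5, 17.7 and 18.7 CPM against 7.80, 8.09 and 8.54 CPM (1.19 ± 0.07, adjusted p = 9.99e-18). Itgb7 was 3.58, 2.81 and 3.67 CPM against 1.56, 1.64 and 1.23 CPM (1.19 ± 0.16, adjusted p = 8.62e-08). None of these 3 genes overlapped between the sides, as was so for 29 of the 38 members and 45.5% of all genes. The call of Itgb6, at under 1 CPM in all 6 libraries, had an adjusted p of 0.0472 and was lost when any of 5 of the 6 libraries was left out.

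On the lingual side of the bell stage stood Itga11, Itga8 and Nid2. Itga11 was 48.9, 49.1 and 47.4 CPM in Bell_L and 17.0, 15.9 and 15.1 CPM in Bell_B (-1.60 ± 0.05, adjusted p = 9.20e-27). Itga8, the nephronectin receptor subunit, was 88.1, 92.9 and 91.4 CPM in Bell_L and 55.8, 53.9 and 51.3 CPM in Bell_B (-0.76 ± 0.04, adjusted p = 1.82e-20). Nid2 was 287, 277 and 272 CPM in Bell_L and 174, 166 and 168 CPM in Bell_B (-0.71 ± 0.03, adjusted p = 4.01e-22). All 3 genes separated the sides completely. Nid1, the other nidogen, did so too but by less, at 505 to 509 CPM in Bell_L and 474 to 484 CPM in Bell_B (-0.09 ± 0.03), and was not called. Itgax, Itgb4, Itga3 and Lamb3 were also lower in the buccal part, and Lama1 passed the adjusted p only (-0.48 ± 0.04, adjusted p = 2.00e-12). In the edgeR fit of all 24 libraries Itgb4 (adjusted p = 0.413), Lamb3 (0.387) and Itga3 (0.263) no longer passed, and without library 1 of Bell_L all 3 missed the fold limit.

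After 2 days of culture the parts differed in more members than before, and in a larger share of all genes. Of 38 members 6 were higher and 15 lower in Cap_B_2D than in Cap_L_2D, against 12.5% of all genes in each direction. The median log2 fold change was -0.25 over the members and 0.00 over all genes. Lama1 was 106, 100.2 and 109 CPM in Cap_L_2D and 11.4, 13.6 and 11.8 CPM in Cap_B_2D (-3.11 ± 0.06, adjusted p = 6.25e-24). Lamb3 was 9.52, 10.9 and 10.3 CPM and 1.32, 2.16 and 2.03 CPM (-2.51 ± 0.13, adjusted p = 9.28e-15). The cultured buccal libraries held the lowest values of Lamb3 among the 24, and 32 of the 38 members had no overlap between the cultured sides, against 59.1% of all genes.

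Itga4 reached 116, 110.5 and 103 CPM in Cap_B_2D and stayed at 11.2, 11.2 and 10.2 CPM in Cap_L_2D (3.33 ± 0.06, adjusted p = 1.71e-24), its widest separation. Itga7 was 24.0, 23.6 and 26.5 CPM in Cap_B_2D and 5.21, 5.37 and 6.33 CPM in Cap_L_2D (2.11 ± 0.08, adjusted p = 2.33e-17). Lama5, the alpha chain of most epithelial and vascular basement membranes, was 106.7, 109.9 and 121 CPM in Cap_B_2D and 53.0, 50.4 and 57.4 CPM in Cap_L_2D (1.06 ± 0.05, adjusted p = 2.51e-15). Its side was the reverse of that at the cap stage, where Lama5 was 86.9, 83.9 and 98.7 CPM in Cap_L and 53.8, 50.5 and 54.3 CPM in Cap_B. Lama3, the alpha chain that pairs with Lamb3, was likewise higher in Cap_B_2D (1.06 ± 0.07), at 20.1 to 22.6 CPM against 9.40 to 10.8 CPM.

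The other members lower in the cultured buccal part were the collagen receptor subunits Itga11 (-1.70 ± 0.05), Itga10 (-1.55 ± 0.05), Itga2 (-0.99 ± 0.08) and Itga1 (-0.93 ± 0.06), and among others Itgb4, Lamc3, Itgax, Lamb1, Itga3, Itgb5, Nid2 and Itga8. All 4 collagen receptor alpha subunits of the family were thus called in that direction, beside 8 of 9 endothelial markers, whose part was not tested. In the edgeR fit of all 24 libraries the calls of Itgax (adjusted p = 0.0597) and Itga3 (0.0562) were lost. Itga8 fell just short of the fold limit in that fit (-0.494), in DESeq2 (-0.4999) and in others. Nid2 (-0.496 without library 3 of Cap_L_2D) and Itgb5 (-0.491 without library 1 of Cap_B_2D) missed it when single libraries were left out. Itgb6 and Itgae were higher in Cap_B_2D at low levels (1.71 to 2.40 CPM and 1.15 to 1.60 CPM).

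**Figure D3:**
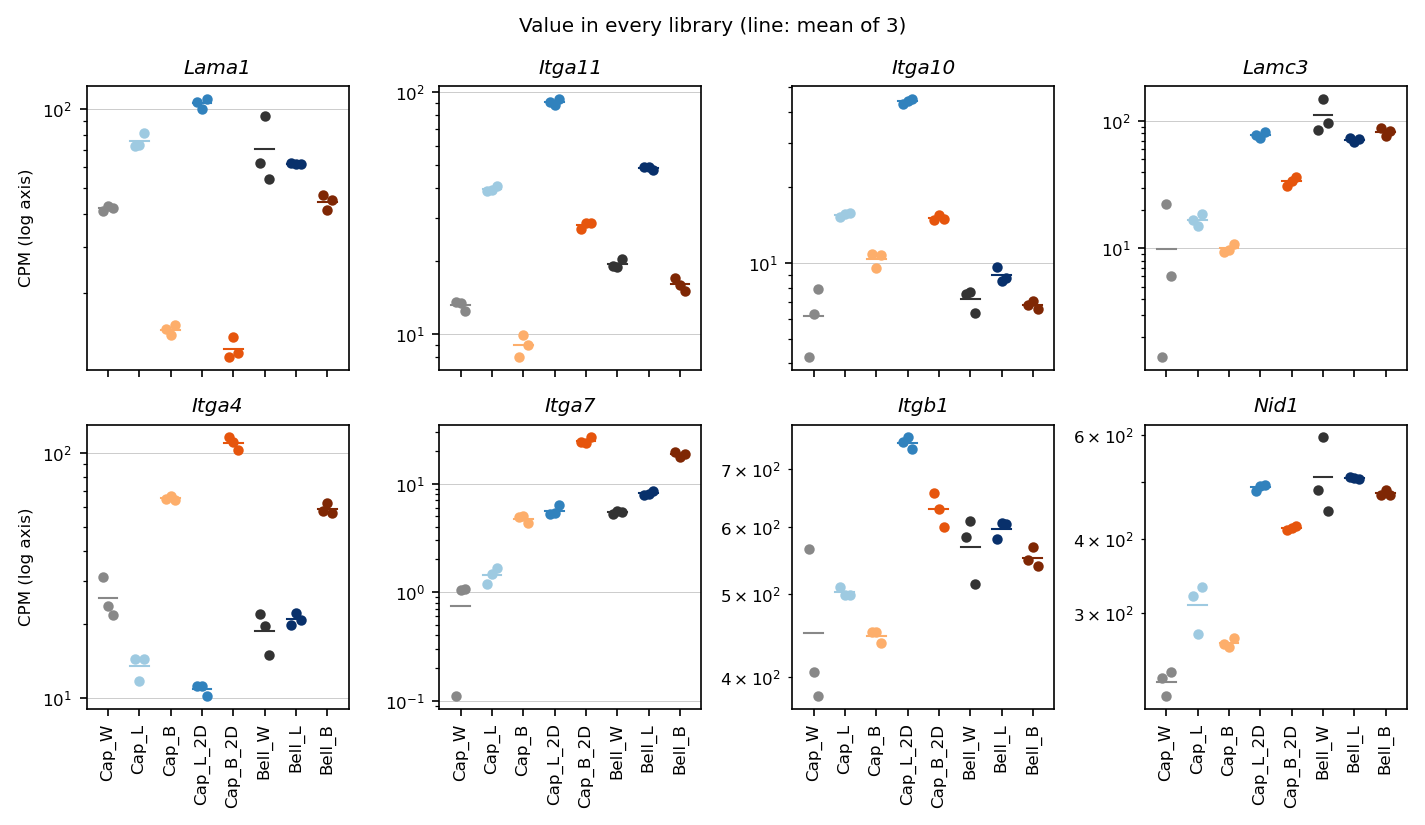
CPM in every library on a log axis for 8 members, with a line at the mean of each group of 3. Lama1, Itga11 and Itga10 are higher in the lingual than the buccal libraries at the cap stage and after culture, Itga4 and Itga7 are higher in the buccal libraries, and Lamc3 and Nid1 are lowest in the uncultured cap-stage groups, where library 1 of Cap_W lies below the others for Itga7 and Lamc3.

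Skeletal muscle markers moved with the buccal side. All 10 tested markers of that list at the cap stage, and all 11 at the bell stage and after culture, were higher in the buccal part. Their sum was 118 to 127 CPM in Bell_L, 969.6 to 991 CPM in Bell_B and 323 to 346 CPM in Cap_L_2D, beside the sums given above. Among defining markers, Myf6 was at or under the floor in Cap_L, Cap_B, Cap_L_2D and Bell_L, and Myf5 in Cap_L. Schwann and glial markers were also higher on the buccal side, in 7 of 8 at the cap stage, 5 of 8 at the bell stage and 3 of 5 after culture (where 1 was lower), with sums of 32.3 to 34.7 CPM in Cap_L and 68.1 to 74.2 CPM in Cap_B. The part of these cells in the values of Itga7 and Itga4 was not tested. Between Cap_L and Cap_L_2D, the muscle sum went from a median of 18.0 to 339 CPM and Itga7 from 1.18 to 1.66 CPM to 5.21 to 6.33 CPM, while Itga4 was 11.7 to 14.5 CPM before and 10.2 to 11.2 CPM after. Bone markers were lower in the buccal part in 6 of 6 tested at the cap stage and 7 of 7 after culture, and in 2 of 6 at the bell stage (1 higher), with a sum of 2213 to 2251 CPM in Cap_L_2D and 487 to 503 CPM in Cap_B_2D. Cartilage markers were lower in the buccal part in 5 of 6 at the cap stage and 5 of 6 after culture (1 higher), while at the bell stage 3 of 6 were higher and 0 lower. The part of these cells in the values of Lama1, Itga10 and Itga11 was not tested.

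Epithelial markers were lowest in the same group as some members of hemidesmosomes and the epithelial basement membrane. Their sum was 618 to 694 CPM in Cap_L, 429.9 to 455 CPM in Cap_B, 484 to 522 CPM in Cap_L_2D, 99.98 to 100.3 CPM in Cap_B_2D and 718 to 747 CPM in Bell_B, and none of the 12 was at the floor in any group. Of these 12 markers 10 were lower in Cap_B than in Cap_L (0 higher), 6 in Bell_B than in Bell_L (0 higher) and 10 in Cap_B_2D than in Cap_L_2D (1 higher). Itgb4, whose upstream sequence is printed above, was 26.6, 26.1 and 31 CPM in Cap_L, 18.0, 18.0 and 18.6 CPM in Cap_B, 13.1, 14.4 and 15.6 CPM in Cap_L_2D and 5.00, 5.12 and 4.11 CPM in Cap_B_2D. Itgb4, Lamb3 and the marker sum were all lowest in Cap_B_2D. Their orders differed elsewhere, as Itgb4 was lower in Cap_L_2D than in Cap_B, whereas Lamb3 and the marker sum were higher in Cap_L_2D. The part of epithelial cells in these values was not tested.

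Lama3 and Lama5 also had another order than the epithelial sum. In Cap_B_2D, where that sum was lowest, Lama5 stood at 106.7 to 121 CPM and Lama3 at 20.1 to 22.6 CPM, both above Cap_B (50.5 to 54.3 CPM and 17.4 to 18.1 CPM). In Cap_L_2D, where the sum was higher, they stood at 50.4 to 57.4 CPM and 9.40 to 10.8 CPM. Itga6, the alpha partner of Itgb4 that also pairs with Itgb1, was lowest in Cap_B_2D (52.9 to 56.7 CPM) and highest in Bell_W (135 to 182 CPM).

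**Figure D4:**
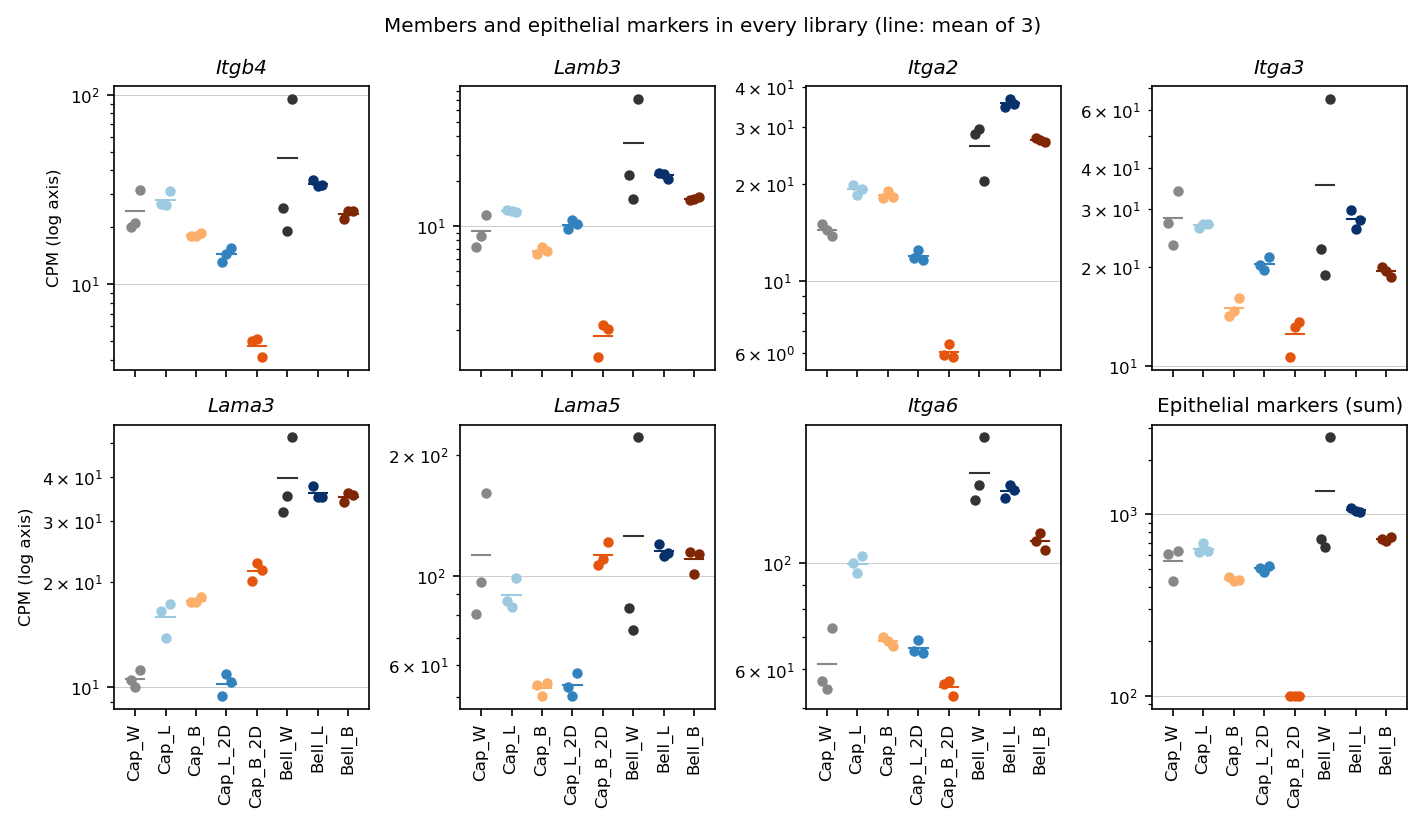
CPM in every library on log axes for Itgb4, Lamb3, Itga2, Itga3, Lama3, Lama5 and Itga6 and for the sum of 12 epithelial markers, with a line at each group mean of 3. Itgb4, Lamb3 and the marker sum fall to their lowest in Cap_B_2D, whereas Lama5 and Lama3 are higher there than in Cap_L_2D, and library 3 of Bell_W stands above the others of its group in every panel but that of Itga2.

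The change from cap to bell stage was compared within the undivided, lingual and buccal mesenchyme, and more members rose than fell in each. In the lingual part 17 of 38 members rose and 1 fell, against 14.2% and 5.78% of all genes. In the buccal part 18 rose and 2 fell, against 12.0% and 6.73%. The median log2 fold change of the members was 0.37 in the lingual and 0.55 in the buccal part, and that of all genes tested was 0.00 in both. Laminin chains contributed 4 rises in the lingual and 7 in the buccal part with 0 falls, and Nid1 rose in both.

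Lamc3, a gamma chain of nerve, retinal and mesenchymal basement membranes, rose from 16.8, 14.8 and 18.6 CPM to 73.5, 68.0 and 71.9 CPM in the lingual part (2.10 ± 0.07, adjusted p = 9.14e-19). In the buccal part it rose from 9.39, 9.75 and 10.8 CPM to 87.4, 76.8 and 82.7 CPM (3.03 ± 0.07, adjusted p = 1.49e-27). The stages did not overlap in either part, as for 32 lingual and 34 buccal members of 38 (55.9% and 55.4% of all genes). Itga7 rose from 1.18, 1.47 and 1.66 CPM to 7.80, 8.09 and 8.54 CPM in the lingual part (2.50 ± 0.13, adjusted p = 3.17e-14). In the buccal part it rose from 4.87, 5.06 and 4.32 CPM to 19.5, 17.7 and 18.7 CPM (1.96 ± 0.09, adjusted p = 2.69e-19). All 10 tested skeletal muscle markers in the lingual and all 11 in the buccal part rose as well, and their part in Itga7 was not tested.

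Itga1, a collagen receptor subunit also of vessels and smooth muscle, rose from 20.9, 18.5 and 20.6 CPM to 53.7, 58.9 and 54.5 CPM in the lingual part (1.49 ± 0.06, adjusted p = 9.40e-17) and less in the buccal part (0.86 ± 0.05). Lama1 rose in the buccal part only by these calls, from 14.5, 13.8 and 15.1 CPM to 47.2, 41.2 and 45.1 CPM (1.61 ± 0.06, adjusted p = 2.09e-20), with a lingual log2 fold change of -0.28 ± 0.05. The test of that difference between the parts gave 1.87 ± 0.08, adjusted p = 1.17e-17. Lama2, the muscle and mesenchymal alpha chain, rose in both parts (0.91 ± 0.06 and 1.09 ± 0.03), as did Lama3 (1.199 ± 0.07 and 0.98 ± 0.06), Lamb3 (0.80 ± 0.07 and 1.14 ± 0.09) and Nid1 (0.72 ± 0.05 and 0.83 ± 0.03). The epithelial marker sum was higher at the bell than at the cap stage in both parts.

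The leukocyte subunits Itgb2 (1.16 ± 0.15 and 0.77 ± 0.15), Itgal (1.04 ± 0.11 and 0.98 ± 0.13) and Itgam (0.98 ± 0.19 and 0.77 ± 0.21) rose with stage in the lingual and buccal parts. So did 12 of 12 macrophage and leukocyte markers in the lingual and 11 of 12 in the buccal part, and the part of those cells was not tested. Itga2 and Itga6 also rose in both parts. Itga4, Itga8, Itgb8, Itgax and Nid2 rose in the lingual part by 0.53 to 1.63, and Itga11, Itgb7 and Lama5 in the buccal part by 0.61 to 1.05.

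Falls with stage were few. Itga10, the chondrocyte collagen receptor subunit, fell from 15.2, 15.6 and 15.8 CPM to 9.62, 8.49 and 8.77 CPM in the lingual part (-0.79 ± 0.07, adjusted p = 8.99e-10). In the buccal part it fell from 10.9, 9.54 and 10.8 CPM to 6.82, 7.04 and 6.59 CPM (-0.62 ± 0.08, adjusted p = 1.54e-07). Itga9, the tenascin receptor subunit, fell in the buccal part from 115, 108 and 116 CPM to 77.1, 80.6 and 81.0 CPM (-0.52 ± 0.04, adjusted p = 2.45e-13). Cap and bell libraries did not overlap in any of these 3 comparisons.

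In the undivided mesenchyme 15 of 36 members rose and 0 fell with stage, against 10.3% and 4.21% of all genes, with medians of 0.51 over the members and -0.03 over all genes. At an unadjusted p under 0.05 the edgeR test had 20 members higher and 1 lower at the bell stage (Itga4, -0.45 ± 0.19), and DESeq2 called 0 falls as well. The share of all genes at that unadjusted limit is not given, so these counts cannot be set against it. Lamc3 went from 1.39, 22.1 and 6.08 CPM to 85.4, 149 and 96.8 CPM (3.42 ± 0.79, adjusted p = 0.0244). Itga7 went from 0.111, 1.05 and 1.07 CPM to 5.23, 5.61 and 5.49 CPM (2.79 ± 0.59, adjusted p = 0.0173). Itgb2, the beta subunit shared by leukocyte integrins, went from 0.723, 0.559 and 0.850 CPM to 3.15, 4.23 and 5.33 CPM (2.56 ± 0.33, adjusted p = 0.00240). The stages were separate for these 3 genes, as for 21 of 36 members and 36.7% of all genes, although Lamc3 and Itga7 spread widely within Cap_W. The skeletal muscle markers had 0 of 8 called here, with sums of 13.1 to 19.3 CPM in Cap_W and 7.62 to 17.6 CPM in Bell_W. Smooth muscle and pericyte markers were higher at the bell stage in 3 of 8 (0 lower). The part of either cell type in the values of Itga7 was not tested. All 12 macrophage and leukocyte markers rose too, from a sum of 57.1 to 65.4 CPM to 273 to 301 CPM, and their part in Itgb2 was not tested. Endothelial markers rose in 9 of 9, from sums of 229.6 to 239 CPM in Cap_W to 457 to 562 CPM in Bell_W. With stage 2 of 9 rose in the lingual and 1 of 9 in the buccal part (0 lower in either). The part of endothelial cells in the rises of members was not tested.

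The undivided libraries were uneven. Library 3 of Bell_W held 95.2 CPM of Itgb4 against 25.4 and 19.1 CPM in the other two, with Lamb3 at 71.1 CPM against 22.0 and 15.1 CPM and Lama5 at 221 CPM against 83.1 and 73.6 CPM. Without it 13 members rose, and without library 1 of Cap_W 15 rose, both with 0 falls. Left out one at a time, library 2 of Cap_W left 9 rises, library 3 of Cap_W 7 and library 2 of Bell_W 7. Nid1, Lama3, Itga1, Itga6 and Itgb2 passed in every one of these fits. Lamc3 had a log2 fold change of 2.92 (adjusted p = 0.0165) without library 1 of Cap_W and 3.50 (adjusted p = 0.0473) without library 3 of Bell_W, by the same edgeR quasi-likelihood test. It lost its call without library 3 of Cap_W (adjusted p = 0.0928) and without library 2 of Bell_W (0.0827), and Itga7 lost its call without library 2 of Bell_W (0.0645).

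Culture was compared with the uncultured cap-stage part of the same side, the same Cap_L and Cap_B libraries that the stage comparisons use. Of 38 members 16 rose and 6 fell in the lingual part, against 19.6% and 15.9% of all genes, and 17 rose and 5 fell in the buccal part, against 17.9% and 16.6%. The median log2 fold change of the members was 0.47 and 0.39, with medians over all genes of -0.03 and -0.02. Both nidogens rose on both sides, by 0.67 ± 0.05 and 0.62 ± 0.03 for Nid1 and by 0.66 ± 0.04 and 0.64 ± 0.03 for Nid2. Among laminin chains, 2 rose and 2 fell in the lingual part, and 4 rose and 2 fell in the buccal part.

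Lamc3 rose in culture from 16.8, 14.8 and 18.6 CPM to 77.3, 73.3 and 82.2 CPM in the lingual part (2.23 ± 0.07, adjusted p = 8.11e-20), and by 1.72 ± 0.07 in the buccal part. Itga7 rose in the buccal part from 4.87, 5.06 and 4.32 CPM to 24.0, 23.6 and 26.5 CPM (2.36 ± 0.08, adjusted p = 1.44e-22) and in the lingual part by 1.98 ± 0.14. Cultured and uncultured libraries did not overlap for either gene, as for 36 of 38 members on each side (67.5% and 69.0% of all genes). The collagen receptor subunits Itga10 (1.51 ± 0.06 lingual, 0.52 ± 0.07 buccal) and Itga11 (1.205 ± 0.05 lingual, 1.63 ± 0.07 buccal) also rose, as did Itgb3, a vitronectin and osteopontin receptor subunit (0.66 ± 0.06 and 1.17 ± 0.07). Itgb1 (0.59 ± 0.04) and Lamb1 (0.79 ± 0.04) passed both limits in the lingual part and not in the buccal part (0.47 ± 0.03 and 0.30 ± 0.03). The difference between the sides was called for Lamb1 (-0.49 ± 0.05, adjusted p = 1.14e-08) and not for Itgb1 (-0.12 ± 0.06, adjusted p = 0.0888).

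**Figure D5:**
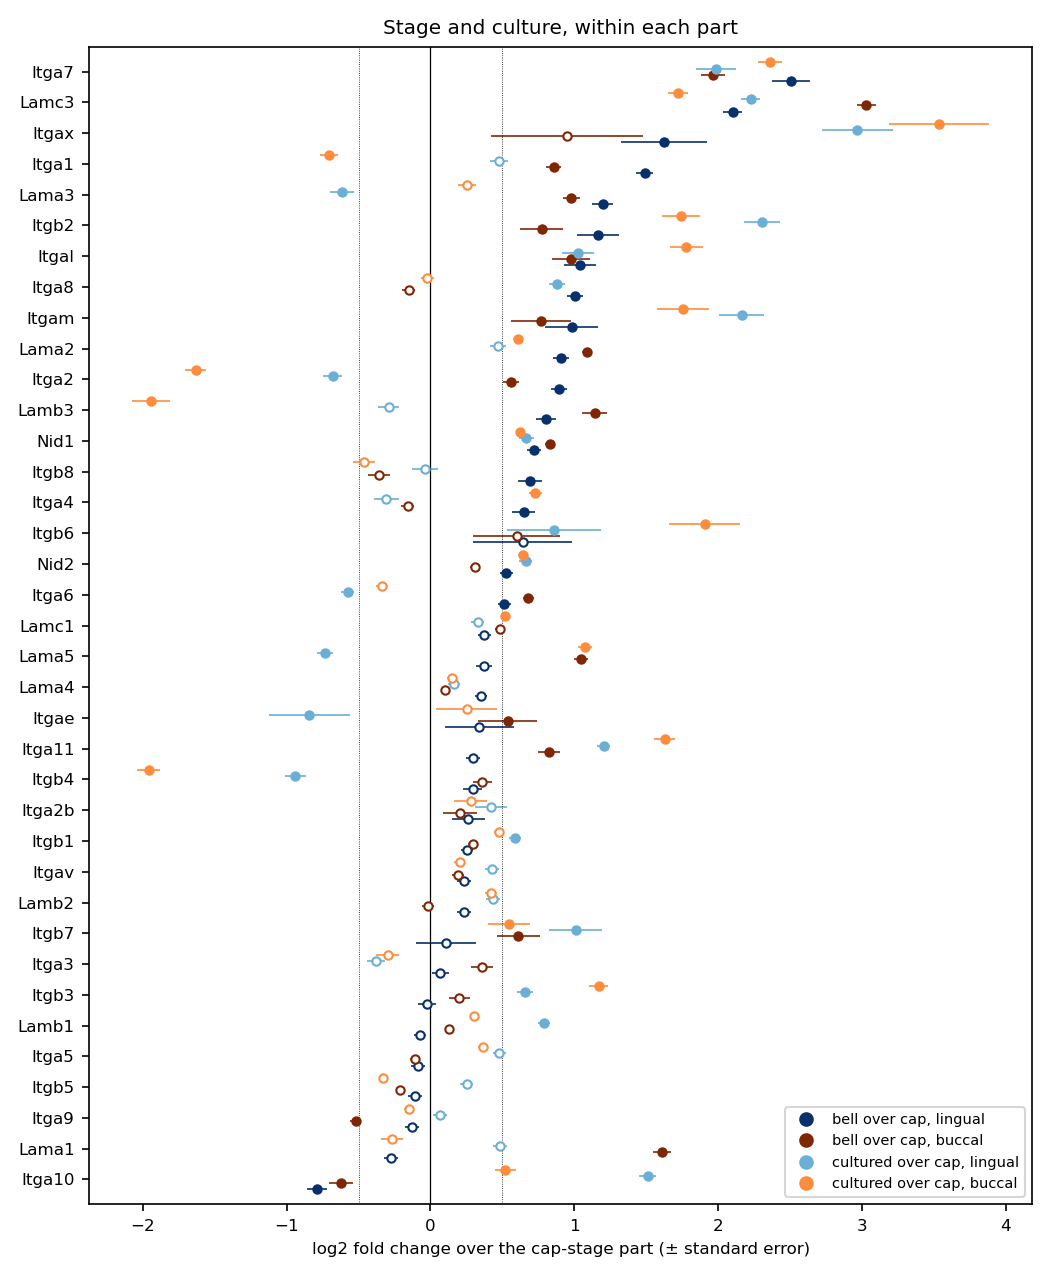
log2 fold change over the uncultured cap-stage part for the tested members, at the bell stage and after 2 days of culture, lingual and buccal (3 against 3 libraries each), with standard errors, filled points for those past both limits and dotted lines at 0.5 in either direction. Itga7, Lamc3 and the leukocyte subunits lie to the right, Itgb4 and Itga2 are to the right or near 0 for stage and to the left for culture, and Itga10 is to the left for stage and to the right for culture.

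The leukocyte subunits Itgb2, Itgam, Itgal, Itgax and Itgb7 rose on both sides, whereas Itgae fell in lingual culture (-0.84 ± 0.28, adjusted p = 0.0112). Itgb2 rose from 2.00, 1.45 and 2.01 CPM to 9.61, 8.49 and 8.57 CPM in the lingual part (2.31 ± 0.13, adjusted p = 2.84e-14). Itgam, the alpha subunit of the complement receptor of macrophages, rose there from 1.04, 0.863 and 0.918 CPM to 4.47, 3.83 and 4.26 CPM (2.16 ± 0.16, adjusted p = 7.77e-12). In the buccal part Itgal, the Icam-binding subunit of lymphocytes, rose from 2.08, 2.18 and 2.18 CPM to 7.19, 7.70 and 7.59 CPM (1.78 ± 0.12, adjusted p = 4.26e-15), and Itgam from 1.17, 1.09 and 0.739 CPM to 3.84, 3.06 and 3.23 CPM (1.76 ± 0.18, adjusted p = 2.98e-10). Itgax, at 2.46 to 2.98 CPM after lingual culture, had been 0.143 to 0.459 CPM before it. Macrophage markers rose with them, all 12 in the lingual and 10 of 12 in the buccal part. Their sum was 401 to 412 CPM in Cap_L_2D and 420.5 to 422 CPM in Bell_L, while Itgb2 stood at 8.49 to 9.61 CPM and 3.69 to 4.38 CPM. The part of those cells in the integrin values was not tested.

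Falls in culture were led by Itgb4 on both sides. Itgb4 fell from 18.0, 18.0 and 18.6 CPM to 5.00, 5.12 and 4.11 CPM in the buccal part (-1.96 ± 0.08, adjusted p = 3.94e-20) and also fell in the lingual part (-0.94 ± 0.07, adjusted p = 2.57e-11). Lamb3 fell in the buccal part from 6.45, 7.24 and 6.85 CPM to 1.32, 2.16 and 2.03 CPM (-1.94 ± 0.13, adjusted p = 9.20e-15). Itga2, a collagen receptor subunit of epithelium, endothelium and platelets, fell from 18.1, 19.0 and 18.2 CPM to 5.90, 6.41 and 5.82 CPM in the buccal part (-1.63 ± 0.07, adjusted p = 1.06e-19). It fell in the lingual part from 19.9, 18.6 and 19.3 CPM to 11.8, 12.5 and 11.6 CPM (-0.68 ± 0.07, adjusted p = 1.54e-09). Lama5 fell in the lingual part from 86.9, 83.9 and 98.7 CPM to 53.0, 50.4 and 57.4 CPM (-0.73 ± 0.06, adjusted p = 2.97e-11) and rose in the buccal part (1.07 ± 0.05, adjusted p = 3.06e-19). Endothelial markers were called lower in 9 of 9 after buccal culture and in 3 of 9 after lingual culture (1 higher). Their sums were 494 to 504 CPM in Cap_B and 194 to 201 CPM in Cap_B_2D, and their part in Itga1 and Itga2 was not tested.

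Cultured parts were also set against the bell-stage part of the same side, which had the same nominal age and shares its libraries with the comparisons above. In the lingual part 10 of 38 members were higher and 12 lower after culture, against 14.4% and 16.8% of all genes, and in the buccal part 9 were higher and 10 lower, against 15.5% and 16.3%. The medians were 0.06 (lingual) and 0.04 (buccal) over the members and -0.01 over all genes in both. Itga10 was higher after culture on both sides, at 43.0, 44.3 and 45.0 CPM in Cap_L_2D against 9.62, 8.49 and 8.77 CPM in Bell_L (2.30 ± 0.06, adjusted p = 4.37e-20). On the buccal side it was 14.9, 15.6 and 15.0 CPM in Cap_B_2D against 6.82, 7.04 and 6.59 CPM in Bell_B (1.14 ± 0.07, adjusted p = 4.90e-15). Cartilage markers were higher after culture than at the bell stage in 5 of 6 (0 lower) in the lingual part and in 3 of 6 (3 lower) in the buccal part, and bone markers in 6 of 7 (0 lower) and 4 of 7 (2 lower). The part of these cells in Itga10 was not tested. The leukocyte subunits Itgam (1.18 ± 0.14 lingual, 0.99 ± 0.15 buccal) and Itgb2 (1.14 ± 0.11 and 0.97 ± 0.11) and Itgb3 (0.68 ± 0.06 and 0.97 ± 0.06) were higher too, and the cultured and bell-stage libraries of these 3 genes did not overlap. In all 34 lingual and 31 buccal members had no overlap, against 67.3% and 66.8% of all genes.

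Lower after culture than at the bell stage were Lama3 in the lingual part, at 9.40, 10.8 and 10.3 CPM against 37.7, 35.2 and 35.1 CPM (-1.82 ± 0.08, adjusted p = 3.18e-16), and Itga2 at 11.6 to 12.5 CPM against 34.6, 36.7 and 35.3 CPM (-1.57 ± 0.06, adjusted p = 6.56e-17). Itgb4 was lower there as well, against 35.3, 33.1 and 33.4 CPM in Bell_L (-1.23 ± 0.07, adjusted p = 1.50e-13). In the buccal part this was so of Lamb3, against 15.0, 15.2 and 15.6 CPM in Bell_B (-3.09 ± 0.11, adjusted p = 2.93e-22), and of Itgb4, against 22.0, 24.4 and 24.4 CPM (-2.32 ± 0.08). Lama1 ended lower than at the bell stage in the buccal part (-1.88 ± 0.06) and higher in the lingual part (0.76 ± 0.05). Of 12 epithelial markers, 10 in the lingual part (2 higher) and 11 in the buccal part (0 higher) were lower after culture than at the bell stage.

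Whether the side difference itself changed was tested as an interaction over 12 libraries, with calls at an adjusted p below 0.05 and no limit on the fold. From cap to bell stage the buccal-over-lingual difference moved up for 9 of 38 members and down for 10, against 14.5% and 18.0% of all genes. The largest were Lama1 (1.87 ± 0.08, adjusted p = 1.17e-17), whose side difference narrowed, Lamc3 (0.92 ± 0.10), and in the other direction Itga8 (-1.17 ± 0.08, adjusted p = 3.40e-13) and Itgb8 (-1.06 ± 0.12). Itga8 was 40.7 to 48.1 CPM in Cap_L and 56.1 to 62.6 CPM in Cap_B, and 88.1 to 92.9 CPM and 51.3 to 55.8 CPM at the bell stage. Its higher side thus changed from buccal to lingual, although its side difference was not called at the cap stage. With culture the difference moved up for 9 and down for 15 members, against 16.0% and 19.5%. In the edgeR fit of all 24 libraries the counts were 2 up and 3 down for stage and 8 down for culture. With culture Lama5 moved most upward (1.80 ± 0.08, adjusted p = 3.09e-17) and Lamb3 most downward (-1.66 ± 0.16, adjusted p = 9.61e-10).

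Members of the same receptor or trimer did not always move alike. The laminin receptor subunits Itga3, Itga6 and Itga7 split by side at the cap stage, with Itga3 (-0.81 ± 0.06) and Itga6 (-0.51 ± 0.05) lower and Itga7 higher in the buccal part. Itga6 missed the fold limit without library 3 of Cap_L (-0.484) and without library 3 of Cap_B (-0.496). Itga2b, the platelet subunit, Itga5, Itga9, Itgav, Lama2, Lama4, Lamb2, Lamc1 and Nid1, as well as Itgb1, Itgb2, Itgal and Itgam, were called on neither side in any of the 3 side comparisons. Itga5 ranged from 111 to 247 CPM and Itgav from 106.6 to 171 CPM over all 24 libraries. Itgae, at 0.421 to 2.35 CPM, rose with stage in the buccal part (0.54 ± 0.21, adjusted p = 0.0298) and fell in lingual culture (-0.84 ± 0.28, adjusted p = 0.0112), calls that were lost when single libraries were left out.

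Further genes of the pathway were counted by lists. Of 27 basement membrane partners, 26 were tested in each comparison of 2 groups. In the lingual part 10 rose and 0 fell with stage and 12 rose and 6 fell in culture, and in the buccal part 10 rose and 0 fell with stage and 9 rose and 4 fell in culture. Smoc1, a calcium-binding matrix protein of basement membranes, rose with stage by 2.02 ± 0.07 and 2.20 ± 0.06 in the lingual and buccal parts, and the collagen IV chains Col4a1 and Col4a2 were among the rises on both sides. By side 4 partners were higher in the buccal part in each of the 3 comparisons, and 2 (cap stage), 3 (bell stage) and 3 (culture) were lower. Over all genes, the shares higher and lower by side were 10.4% and 7.10% (cap stage), 6.00% and 6.88% (bell stage) and 12.5% and 12.5% (culture). With stage they were 14.2% and 5.78% in the lingual and 12.0% and 6.73% in the buccal part. In culture they were 19.6% and 15.9% (lingual) and 17.9% and 16.6% (buccal). Frem1, which anchors epithelium to the matrix, was lower on the buccal side at the cap stage (-1.07 ± 0.06) and after culture (-2.10 ± 0.04).

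Among 24 other integrin ligands, 18 of 23 tested rose and 1 fell in lingual culture, with a median log2 fold change of 1.14, and 12 of 24 rose and 3 fell in buccal culture. Spp1, the bone matrix ligand osteopontin, rose by 6.11 ± 0.07 in lingual culture (181 ± 2.67 against 2.60 ± 0.311 CPM, mean ± SD, n = 3). Ibsp, another mineral matrix ligand, rose there by 3.30 ± 0.05 and was lower on the buccal side after culture (-3.30 ± 0.04). With stage 9 ligands rose and 4 fell in the lingual part, and 11 rose and 3 fell in the buccal part. By side at the cap stage, 6 of 23 ligands were higher and 8 lower in the buccal part, against 10.4% and 7.10% of all genes. At the bell stage 2 of 24 were higher and 9 lower, against 6.00% and 6.88%. After culture 12 of 23 ligands were lower and 1 higher on the buccal side, against 12.5% of all genes in each direction. For the ligands' changes with stage and in culture, the shares of all genes are those given with the partners. Cdh1, the ligand of Itgae and also one of the epithelial markers, was 1.74 ± 0.196 against 21.9 ± 0.253 CPM in Cap_B_2D and Cap_L_2D (mean ± SD, n = 3).

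Of 30 adaptors that join integrins to the cytoskeleton, all were tested. By side there were 1 higher and 2 lower in the buccal part at the cap stage, then 2 higher and 4 lower at the bell stage and 2 higher and 3 lower after culture. Tln2, a talin, was higher on the buccal side in all 3 comparisons (0.95 ± 0.06, 0.56 ± 0.03 and 0.92 ± 0.04). Fermt1, the kindlin of epithelium, was lower there in all 3 (-0.88 ± 0.11, -0.68 ± 0.09 and -2.38 ± 0.23). With lingual culture 10 adaptors rose and 1 fell, and with buccal culture 8 rose and 3 fell. The shares of all genes given with the partners apply to these side and culture counts as well.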

How the data were processed

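Bulk RNA-seq of 24 libraries was analysed from 1 table. The authors deposited raw counts of read pairs per gene, made with featureCounts 2.0.0 in paired mode over exons of Ensembl release 107 (GRCm39), per the file headers, without regard to strand and without read pairs that mapped or were assigned to several places. The labels name a SMARTER kit and the paper a stranded TruSeq kit, and the aligner differs between the submitters' processing notes (Bowtie 1.2.3) and the paper (STAR). The deposited table also lists each gene's exon length, used as other information for levels per kb. All columns were used.

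Symbols came from GENCODE M39 by identifier, which named 56017 of 56748 genes. Tests were run in R 4.3.3 with edgeR 4.0.16 (TMM, filterByExpr, quasi-likelihood F test, Benjamini-Hochberg adjustment over all genes tested), checked on simulated data first. Levels are CPM (counts per 1000000) with TMM factors over 24 libraries. Library totals were 20581720 to 39266497 (median 27677163), which sets the floor of 3 counts. PCR duplicates were not marked, so floors cover counting error only. No pair of libraries agreed within sampling noise.

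One member, counted in all totals, is not reported here. Values in every library are given for the 3 members in each direction with the largest change among those called with at least 2 CPM on average in the fit. Members, lists and tests were chosen with earlier results of these data known. Alternatives were RLE normalization, TMM without the 100 most abundant genes, DESeq2 1.42.0, no filter, a minimum of 10 counts per library, 1 fit of the 24 libraries together, a block for replicate number, other fold limits, and omission of each library.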

Additional observations from a re-analysis of the deposited data

Results flagged for a closer look

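The side difference (log2 of buccal over lingual) changed between the cap and the bell stage for 19 members at an adjusted p under 0.05 in edgeR's quasi-likelihood test of the interaction, the reason for listing them here. It moved toward the buccal side for, among others, Lama1 (1.87), Lamc3 (0.92), Lama5 (0.66), Itga11 (0.52), Lamb3 (0.33), Itga3 (0.28), Lamb1 (0.19) and Itga6 (0.16). It moved toward the lingual side for Itga8 (-1.17), Itgb8 (-1.06), Itga4 (-0.82), Itga1 (-0.64), Itga7 (-0.55), Itga9 (-0.40), Itga2 (-0.35), Lamb2 (-0.26), Lama4 (-0.26) and Nid2 (-0.23). Values are the bell-stage difference minus the cap-stage difference on the log2 scale. Lama1 and Itga8 lead the 2 directions. The lingual excess of Lama1 narrowed. Itga8 was higher in the lingual part at the bell stage and in the buccal part at the cap stage, where its difference was not called.

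Between uncultured and cultured cap-stage parts the side difference changed for 24 members by the same test. It moved toward the buccal side for Lama5 (1.80), Itgae (1.09), Itga4 (1.03), Lama3 (0.86), Itgal (0.74), Itgb3 (0.50), Itga11 (0.41), Itga6 (0.23) and Lamc1 (0.18). It moved toward the lingual side for, among others, Lamb3 (-1.66), Itga1 (-1.19), Itgb4 (-1.03), Itga10 (-0.9985), Itga2 (-0.96), Itga8 (-0.91), Lama1 (-0.76), Itgb5 (-0.59), Itgb2 (-0.57), Lamc3 (-0.51), Lamb1 (-0.49), Itgb8 (-0.44), Itgav (-0.23) and Itga9 (-0.22). Values are the cultured minus the uncultured difference on the log2 scale. The epithelial laminin chain Lamb3 and Itgb4 moved one way and Lama3 and Lama5 the other. Epithelial, endothelial and macrophage markers had interactions of their own, and their part was not tested. With culture 9, 7 and 12 of these markers moved toward the lingual side and 2, 0 and 0 toward the buccal side. When all 24 libraries shared 1 edgeR fit, 14 of the stage and 10 of the culture interactions lost their call, Lamc3 and Lama5 (stage) and Itgb4 (culture) among them. Lama1, Itga8, Itgb8 and Itga4 in the stage interaction, and Lama5, Lamb3, Lama1 and Itga10 in the culture interaction, kept it. All calls are over 12 libraries, and both tests share the Cap_L and Cap_B libraries.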

How the results depend on the processing

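Member values were recomputed under alternatives only where the main edgeR fit gave an adjusted p below 0.05, so gains were not counted. Of 4719 such values, 4488 kept their direction and an adjusted p below 0.05, 231 kept the direction and lost the adjusted p, and 0 reversed. The alternatives shared most or all of their libraries with the main fit, and the fold limit was not applied in this count. Of 228 calls 177 kept an adjusted p below 0.05 in every other fit that tested the gene, and 168 kept both that and the fold limit of 0.5. Fits whose filter left a gene out, or that gave it no adjusted p, were not counted for it. The adjusted p was lost by 40 calls in the fit of all 24 libraries, 3 in DESeq2, 1 without a filter on low counts, 3 with the replicate block and 18 when single libraries were left out. On either limit, 30 calls were lost when single libraries were left out, 10 of them in the stage comparison of the undivided mesenchyme. In 13 calls the fold went below the limit in some fit at an adjusted p still below 0.05. Other scalings moved the median of all genes by at most 0.0286 on the log2 scale, and RLE levels were 0.982 to 1.01 times the TMM levels.

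Without a fold limit the counts that moved by over 1.5 times were, for side, 13 higher at the cap stage, 9 higher and 18 lower at the bell stage and 13 higher after culture. For stage they were 26 higher and 3 lower in the lingual and 7 lower in the buccal part. For culture they were 26 higher and 10 lower in the lingual and 11 lower in the buccal part, and 16 (lingual) and 17 (buccal) higher than at the bell stage. At a log2 limit of 1 the counts were, for side, 2 higher and 2 lower at the cap stage, 2 lower at the bell stage and 7 lower after culture. For stage they were 9 higher in the undivided mesenchyme, 8 higher and 0 lower in the lingual and 6 higher and 0 lower in the buccal part. For culture they were 9 higher and 0 lower in the lingual and 10 higher in the buccal part, and 4 (lingual) and 3 (buccal) higher than at the bell stage. The shares of all genes without a fold limit and at a log2 limit of 1 are not given. These counts therefore show only how the calls of members depended on the limit. The fit of all 24 libraries, which includes the uneven undivided groups, gave 4 lower by side at the bell stage, 2 up and 3 down for side with stage, and 8 down for side with culture.

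Leaving out 1 library at a time, the counts higher and lower ranged from 4 to 5 and 10 to 13 for side at the cap stage, 3 to 4 and 4 to 7 at the bell stage (4 lower without library 1 of Bell_L), and 6 to 7 and 13 to 15 after culture. They ranged for stage from 7 to 15 and 0 to 0 in the undivided mesenchyme, 16 to 17 and 1 to 1 in the lingual and 17 to 18 and 1 to 2 in the buccal part (1 lower without library 3 of Cap_B or library 1 of Bell_B, when Itga9 missed the fold limit). For culture they ranged from 15 to 18 and 5 to 6 (lingual) and 17 to 18 and 5 to 5 (buccal), and against the bell stage from 10 to 10 and 11 to 12 (lingual) and 9 to 11 and 10 to 10 (buccal). The interactions ranged from 8 to 12 up and 9 to 11 down for stage and 9 to 10 up and 14 to 16 down for culture.

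The replicate number as a block gave 14 rises in place of 15 in the undivided mesenchyme and 8 in place of 9 upward interactions of side with stage, and the same counts in the other comparisons. The calls it lost were Itgal (adjusted p = 0.0798) and Itga11 (adjusted p = 0.0588) in the undivided mesenchyme and Itga6 in the interaction of side with stage (adjusted p = 0.0623). As 14 rises remained in the undivided mesenchyme, the block also called a member there that the main fit had not called. Deviations of same-numbered libraries from their group means had correlations of -0.0804 to 0.0902. Counting noise in genes with few counts can hide a shared deviation, so these values cannot show whether the libraries were pairs. The main fits did not take the numbers as pairs. Members near the floor (Itgad, Itgb2l, Itgax, Itgb6) are limited by depth.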

Other observations

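The undivided mesenchyme was set beside its parts. Over the 36 members with a mean of at least 1 CPM over the group means, the mean of Cap_W was below both Cap_L and Cap_B for 20, between them for 9 and above both for 7, beside 40.8%, 22.6% and 36.6% of 17951 genes at the same level. Nid1 was 218 to 239 CPM in Cap_W, against 277 to 332 CPM and 264 to 272 CPM in the parts, and Lama4 was 154 to 159.8 CPM against 242 to 264 CPM and 304 to 312 CPM. Endothelial markers summed to 229.6 to 239 CPM in Cap_W and to 559 to 572 CPM and 494 to 504 CPM in the parts. At the bell stage 14 members were below both parts, 8 between and 14 above, beside 36.7%, 25.9% and 37.4% of all genes.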
